A study of Mus musculus with 2 samples.

Results

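Mir103-1, Mir103-2 and Mir107 are microRNA genes whose hairpins lie in introns of the pantothenate kinase genes Pank3, Pank2 and Pank1. They were chosen by their GENCODE M21 gene names and are 3 of the 2202 microRNA genes counted. Left cerebral cortex was taken from 2 females aged 36 days. Both mice were of the hybrid strain B6CASTF1/J, a cross of a C57BL/6 and a castaneus strain. The labels number the animals as replicates of a single group and name no treatment, so the design holds no comparison between conditions. Whole cortex tissue was sequenced, so fewer cells of a type and less microRNA per cell cannot be told apart. Levels are in CPM, the sense counts (reads on the gene's strand) of a gene scaled to its library's sense total, as mean ± SD over n = 2 mice unless a mouse is named.

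Pantothenate kinases catalyse the rate-limiting step of coenzyme A synthesis. A microRNA hairpin is cut into a 5p and a 3p arm, and the arm loaded into Argonaute pairs with messenger RNAs mainly through its seed, here bases 2 to 8. miR-103 and miR-107, both 3p arms, are known to lower insulin sensitivity in liver and fat, where they repress caveolin-1, and to repress Dicer. In the cortex, miR-107 is known for its low level in Alzheimer's disease and for targeting Bace1, the secretase that starts amyloid production.

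The hairpins and their arms are shown because their near identity decides which reads can be given to a single gene. RefSeq sequences of the GRCm38.p6 build matched all 3 genes, at the same coordinates as in GENCODE. In the hairpins, 5′ to 3′, capitals mark the 5p and then the 3p arm.
Mir103-1 hairpin: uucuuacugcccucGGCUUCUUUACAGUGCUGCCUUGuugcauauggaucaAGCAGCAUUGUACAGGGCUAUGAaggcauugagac
Mir103-2 hairpin: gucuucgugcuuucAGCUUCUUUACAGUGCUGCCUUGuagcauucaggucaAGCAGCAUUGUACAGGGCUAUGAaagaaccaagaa
Mir107 hairpin: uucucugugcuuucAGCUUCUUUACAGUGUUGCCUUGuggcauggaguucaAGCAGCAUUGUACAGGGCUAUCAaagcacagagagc
In the arms, capitals mark the seed.
miR-103-3p: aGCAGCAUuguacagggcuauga
miR-107-3p: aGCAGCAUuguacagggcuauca
miR-103-1-5p: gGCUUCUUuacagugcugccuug
miR-103-2-5p: aGCUUCUUuacagugcugccuug
miR-107-5p: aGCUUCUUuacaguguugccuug

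All 3 genes carried the same seed on each arm, and among 1738 mature entries of RefSeq no other gene had the 3p seed GCAGCAU or the 5p seed GCUUCUU. The 3p arms of Mir103-1 and Mir103-2 were identical over 23 bases. That of Mir107 differed from them by G22C, counted from the 5′ end with the base of miR-103-3p first. The 5p arms differed by G1A from Mir103-1 to Mir103-2 and by C16U from Mir103-2 to Mir107, and thus at 2 bases from Mir103-1 to Mir107. Thus the arms that share a target seed were nearly the same, and the hairpins as a whole were less alike. In global alignments, 80.2% of columns were identical between Mir103-1 and Mir103-2, 80.5% between Mir103-1 and Mir107, and 83.9% between Mir103-2 and Mir107.

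The hairpins held the same place in their hosts. Mir107 (ENSMUSG00000065594.1, mm10 chromosome 19, 34820687 to 34820773, minus strand) lay in intron 5 of the 7-exon principal transcript of Pank1, 326 bases past the upstream exon in an intron of 7282 bases. Mir103-2 (ENSMUSG00000065563.1, chromosome 2, 131288052 to 131288137, plus strand) lay in intron 5 of Pank2, also of 7 exons, 454 bases past the exon in an intron of 5801 bases. Mir103-1 (ENSMUSG00000065553.1, chromosome 11, 35782396 to 35782481, plus strand) lay in intron 5 of Pank3, again of 7 exons, 688 bases past the exon in an intron of 1740 bases. Each hairpin was on its host's strand, and 0 annotated transcripts of the hosts had an exon over it. Pank4, the remaining gene of this name, held 0 annotated microRNA genes. The map of the introns shows these positions to scale.

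**Figure D1:**
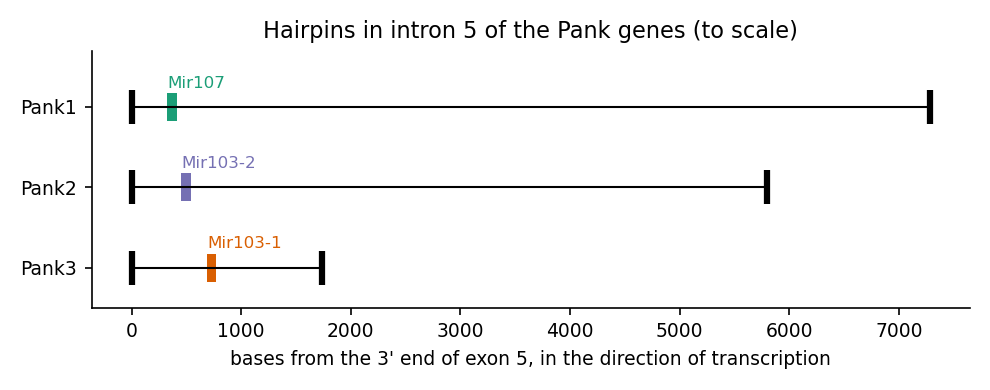
Position of each hairpin (coloured block) in intron 5 of its Pank host gene, in bases from the 3′ end of exon 5 in the direction of transcription, with black ticks at the intron's ends. The hairpins begin 326 (Mir107), 454 (Mir103-2) and 688 (Mir103-1) bases past exon 5, in introns of 7282, 5801 and 1740 bases.

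Mir107 held nearly all counts of the family. It had 1949 counts in mouse 1 and 5176 in mouse 2, or 1010 and 2777 CPM. Its mean of 1893 ± 1250 CPM placed it at rank 72 of the 2202 genes, at rank 93 in mouse 1 and at rank 58 in mouse 2. Mir107 alone of the 3 was at 10 CPM or more in both mice, as were 304 genes in all.

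Mir103-2 and Mir103-1 had few counts. Mir103-2 had 10 counts in mouse 1 and 36 in mouse 2, which is 5.18 and 19.3 CPM (12.2 ± 9.99 CPM, rank 310). Mir103-1 had 2 counts in mouse 1 and 5 in mouse 2, which is 1.04 and 2.68 CPM (1.86 ± 1.16 CPM, rank 452). The Mir103-1 counts lay on either side of the 3 counts that a count of 0 allows (1.55 CPM for mouse 1, 1.61 CPM for mouse 2). Per 100 bases of hairpin the mean levels were 2176 CPM for Mir107, 14.2 CPM for Mir103-2 and 2.16 CPM for Mir103-1 (hairpins of 87, 86 and 86 bases). In both mice the order was Mir107, Mir103-2, Mir103-1, and the ranges of neighbouring genes in that order did not overlap. All 3 genes had 0 antisense counts in both mice.

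**Figure D2:**
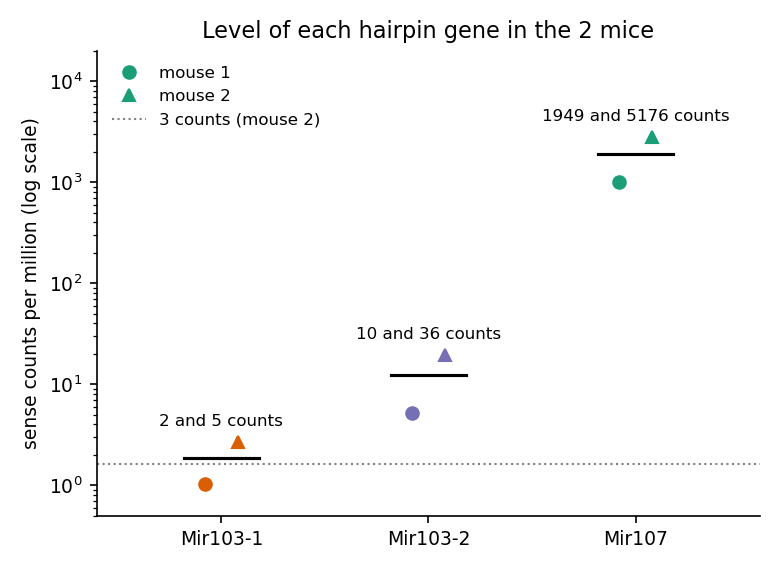
Level in CPM (log axis) of each hairpin gene in mouse 1 (circles) and mouse 2 (triangles), with the mean as a bar, the counts printed above and a dotted line at 3 counts in mouse 2. Mir107 sits at 1010 and 2777 CPM, Mir103-2 at 5.18 and 19.3 CPM and Mir103-1 at 1.04 and 2.68 CPM, with mouse 2 the higher in each.

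The split of the counts among the hairpins was close in the 2 mice, although the total was not. Together the 3 genes had 1961 counts in mouse 1 and 5217 in mouse 2, or 0.102% and 0.280% of sense counts. Mir107 made up 99.4% of these in mouse 1 (95% Clopper-Pearson interval 98.9% to 99.7%) and 99.2% in mouse 2 (98.9% to 99.4%). Mir103-2 made up 0.510% (0.245% to 0.936%) and 0.690% (0.484% to 0.954%). Mir103-1 made up 0.102% (0.0124% to 0.368%) and 0.0958% (0.0311% to 0.224%). The intervals of the mice overlapped for each gene. They cover counting error only, as no molecular identifiers were named and PCR copies count as reads. Of the counts given to the 2 Mir103 hairpins, Mir103-2 took 10 of 12 (83.3%, interval 51.6% to 97.9%) in mouse 1 and 36 of 41 (87.8%, 73.8% to 95.9%) in mouse 2.

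These are shares of the reads given to a single gene, not of the microRNAs in the tissue. Multi-mapped reads were given to no gene, and they were 50.9% of mapped reads in mouse 1 and 51.2% in mouse 2. How many of them came from these 3 hairpins is unknown. The sequences show which reads of the 3p arm fit a single hairpin. From the first base of that arm, a stretch of up to 21 bases stood in all 3 hairpins. At 22 bases and more the stretch from Mir107 stood in that hairpin alone, since the base that sets miR-107 apart is its base 22. The stretch from Mir103-1 or Mir103-2 stood in both Mir103 hairpins up to 24 bases, which covers the whole 23-base arm, and in its own hairpin alone from 25 bases.

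The 5p arms differed in this for reads that begin at their first base. From the first base of the 5p arm, a stretch of 16 bases already stood in a single hairpin for each of the 3 genes. The 5p arms of Mir103-1 and Mir103-2 differ only at base 1, so a stretch of the arm that begins later stood in both. Over the whole hairpins, 53 of 69 stretches of 18 bases stood in a single hairpin for Mir103-1. For Mir103-2 they were 47 of 69, and for Mir107 57 of 70. The search covered 1005 RefSeq hairpins and no other part of the genome, and it allowed no mismatch. Castaneus alleles of these hybrid mice were not searched. Counts are per gene, so which arm gave the 2 to 36 counts of the Mir103 genes, or the counts of Mir107, cannot be told from them.

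**Figure D3:**
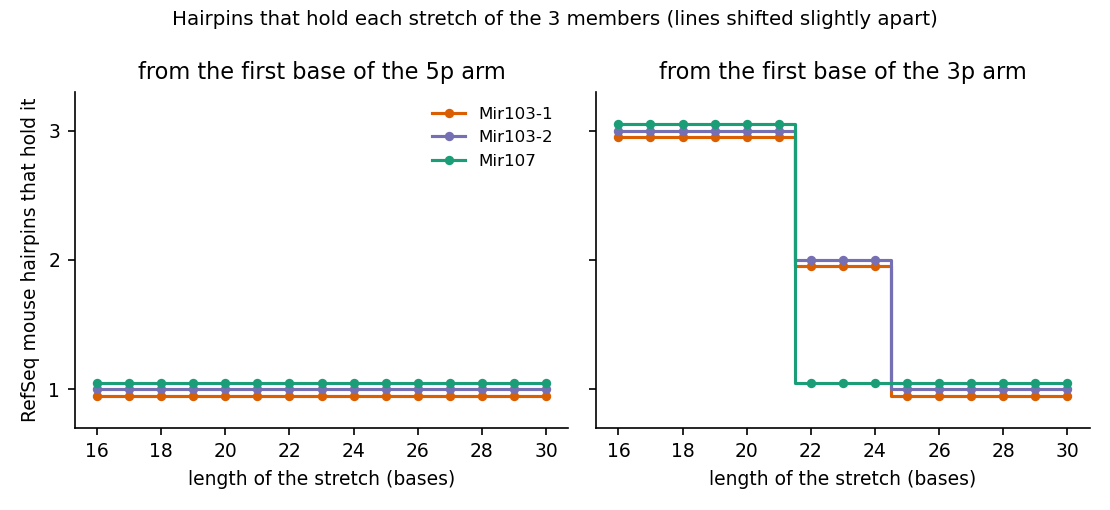
Number of RefSeq mouse hairpins (vertical axis) that hold a stretch of a given length (horizontal axis, bases) that begins at the first base of the 5p arm (left) or 3p arm (right), for Mir103-1, Mir103-2 and Mir107. On the 3p side the number is 3 up to 21 bases, falls to 1 at 22 bases for Mir107 and at 25 bases for both Mir103 hairpins, while on the 5p side it is 1 throughout.

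The longest run common to the Mir103 hairpins was 27 bases, from 3 bases before the 3p arm to 1 base past its end. In the lists, 3 other pairs of hairpins in related host genes make an identical arm, and all 3 had a shorter shared run and more counts. Mir128-1 and Mir128-2, neuronal hairpins in the related genes R3hdm1 and Arpp21, shared 23 bases and stood at 16730 ± 633 and 3505 ± 299 CPM. Mir26a-1 and Mir26a-2, in phosphatase genes of the Ctdsp family, shared 25 bases and stood at 116 ± 126 and 73.8 ± 64.8 CPM. Mir218-1 and Mir218-2, in the axon guidance genes Slit2 and Slit3, shared 22 bases and stood at 40.8 ± 7.56 and 109 ± 46.3 CPM. For these pairs, as for the Mir103 pair, the counts leave out reads that fit both hairpins. Counted from the first base of the arm, a stretch stood in 1 hairpin alone from 25 bases for the Mir103 pair. For the Mir26a pair it did so from 26 bases, for Mir218 from 23 and for Mir128 from 22. A link between shared length and counts was not tested. The split within a pair also differed. Mir128-1 took 81.4% and 83.9% of the counts of its pair in mouse 1 and mouse 2, Mir26a-1 took 49.1% and 63.1%, and Mir218-2 took 62.3% and 80.0%.

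All 3 genes had higher CPM in mouse 2. Ratios are of mouse 2 over mouse 1 with TMM library sizes. Each pair of counts had an exact binomial test, two-sided, with Benjamini-Hochberg adjustment over 324 genes whose mean was at least 10 CPM. The test sets the 2 libraries against counting error alone. With an adjusted p under 0.05 and at least 2-fold, 63 of 324 genes (19.4%) were called, and 46 (14.2%) were called as higher in mouse 2. Mir107 had a log2 ratio of 1.41 (95% counting interval 1.34 to 1.49), which is 2.66-fold higher in mouse 2, and was called. Of the 324 genes, 37 had a larger absolute log2 ratio. Mir103-2 had a log2 ratio of 1.85 (interval 0.81 to 3.03), which is 3.61-fold higher in mouse 2 (exact binomial adjusted p = 0.000175), and it reached 10 CPM on average only through mouse 2. Mir103-1 fell below that level and was not tested. Its counts of 2 and 5 gave a ratio of 2.50 with a counting interval from 0.41 to 26.3. The intervals of the 3 ratios overlapped, and a difference between the hairpins in this respect was not tested.

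The difference in Mir107 was large against counting error and less so against the spread between the mice. The common biological coefficient of variation, estimated by edgeR from the same 2 libraries, was 0.399, which corresponds to an SD of 0.81 for a log2 ratio of 2 libraries. The log2 ratio of Mir107 was 1.73 times that SD. The median absolute log2 ratio over the 324 genes was 0.53. Each mouse had 1 library, so animal and library preparation cannot be told apart.

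**Figure D4:**
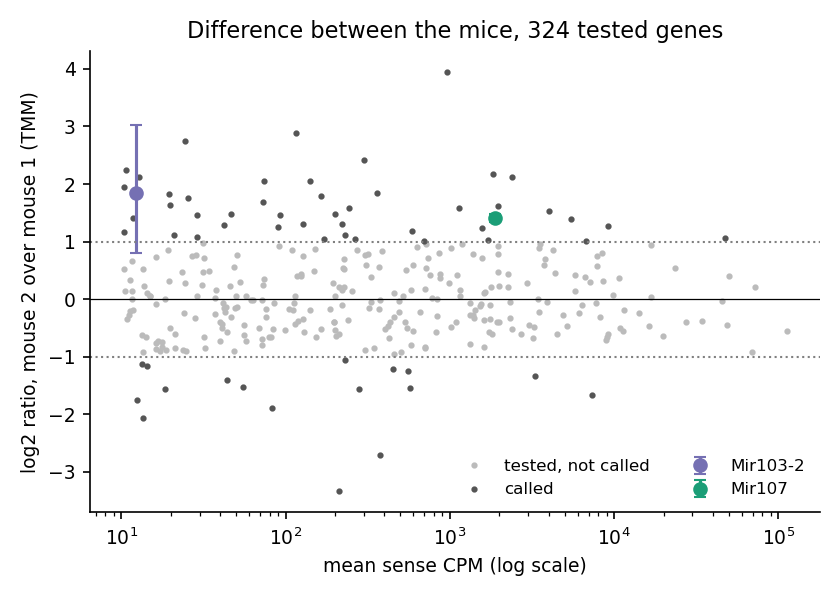
Log2 ratio of mouse 2 over mouse 1 (TMM) against mean sense CPM (log axis) for the 324 tested genes, with called genes in dark grey, dotted lines at 2-fold and 95% counting intervals on Mir103-2 and Mir107. Both lie above the upper dotted line, Mir107 at 1.41 and Mir103-2 at 1.85, as do 44 other called genes. Mir103-2 reached the 10 CPM mean needed for the test only through mouse 2.

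Markers of several cell types had unequal levels in the 2 libraries. Summed over the list, the oligodendrocyte markers (2 of 2 detected) were at 2746 and 5119 CPM in mouse 1 and mouse 2 (log2 ratios 0.78 and 0.93, not called), and the endothelial Mir126a was at 11276 and 22380 CPM (0.94, not called). The neuronal list (5 of 8 detected) summed to 56732 and 92663 CPM. Most of the gap lay in the activity-induced Mir132 (29894 and 64860 CPM, called), while Mir128-1, Mir128-2, Mir138-1 and Mir138-2 lay at log2 ratios of 0.03, −0.22, 0.45 and −0.60 and were not called. The 3 Mir124a genes had 4 counts or fewer in each mouse. Reads that fit more than 1 of their hairpins were given to no gene, so these counts do not give the level of miR-124. The red blood cell markers (2 of 2) were called as higher in mouse 1, at 712 and 128 CPM in sum. The microglia and leukocyte markers (2 of 3) summed to 1585 and 1412 CPM, nearly all from Mir150 (1531 and 1264 CPM, not called). Mir142, known from blood and immune cells, was called as higher in mouse 2 (48.2 and 137 CPM, log2 ratio 1.46), and Mir223 was at 5.70 and 11.8 CPM. For muscle, Mir1a-1 and Mir133a-1 were at 0 counts and Mir206 at 31.8 CPM, and the liver marker Mir122 was at 42.9 CPM. The part of cell makeup in the Mir107 difference was not tested.

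Mir103 and Mir107 belong to a wider group of microRNAs that share the bases AGCAGC near the 5′ end. In miR-103 and miR-107 that run begins at base 1, while in the listed relatives that hold it the run begins at base 2, so that the seeds are out of step by 1 base. Capitals mark the run in the 2 microRNAs and in the 5 relatives with the highest counts.
miR-103-3p: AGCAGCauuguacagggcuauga
miR-107-3p: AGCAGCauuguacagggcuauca
miR-195a-5p: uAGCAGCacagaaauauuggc
miR-322-5p: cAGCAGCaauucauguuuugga
miR-497a-5p: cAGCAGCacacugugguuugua
miR-16-5p: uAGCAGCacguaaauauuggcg
miR-15a-5p: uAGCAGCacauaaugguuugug
The listed relatives that hold the run are best known for restraining the cell cycle. Of the 10 genes in the list, 8 were at 10 CPM or more in both mice, against 304 of all 2202 genes, and the list's median level was 428 CPM. The list was set by name. By sequence alone, 15 genes besides Mir103-1, Mir103-2 and Mir107 held AGCAGC within the first 9 bases of an arm, and 8 of these were detected, with a median of 31.2 CPM. The 6 of them outside the list, which include 3 with the run at base 4, all had 0 counts in both mice. Mir107 had the highest mean of the group, ahead of Mir195a (1765 ± 261 CPM), Mir322 (992 ± 159 CPM), Mir497 (703 ± 267 CPM), Mir16-1 (656 ± 56.1 CPM) and Mir15a (628 ± 284 CPM). Per 100 bases of hairpin Mir107 stood at 2176 CPM and Mir195a at 1878 CPM. The SD of Mir107 spans that gap, and in mouse 1 the order was turned, with Mir195a at 1950 CPM and Mir107 at 1010 CPM. Mir195b and Mir1907 had 0 counts in both mice. Mir1907 is in the list by name but was not among the 15 genes found by sequence.

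None of the 8 tested genes of that list was called between the mice, where 19.4% of all tested genes were. Their log2 ratios ran from −0.84 for Mir497 to 0.91 for Mir15a, with a median of 0.03. Mir195a was at −0.35 and Mir322 at 0.28. A test of the difference between Mir107 and these genes was not made. Mir15a and Mir15b were higher in mouse 2 by less than 2-fold (1.88-fold and 1.43-fold), while Mir16-1 and Mir16-2 had log2 ratios of −0.22 and −0.18.

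**Figure D5:**
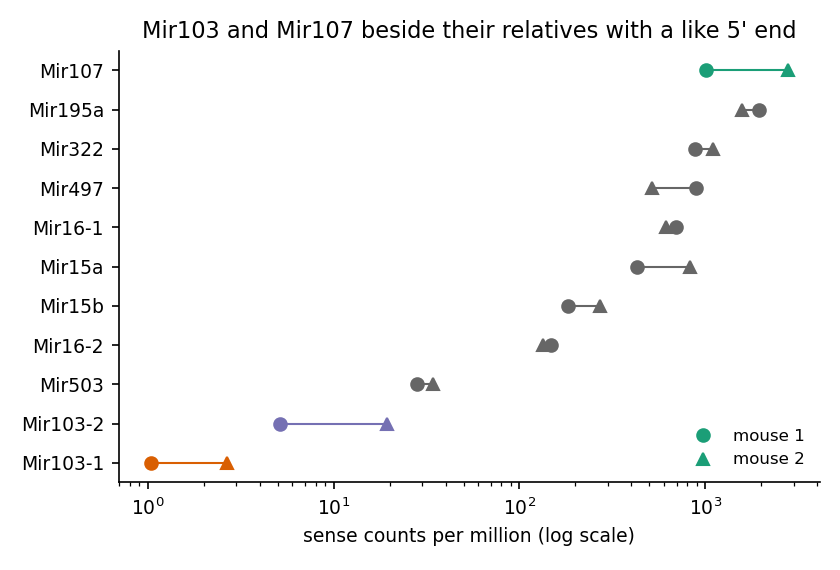
Level in CPM (log axis) in mouse 1 (circles) and mouse 2 (triangles) of Mir107, Mir103-2, Mir103-1 and the 8 genes of the list of relatives that had counts, ordered by mean. Mir107 spans 1010 to 2777 CPM, the widest gap in CPM, although on the log axis Mir103-2 (5.18 to 19.3 CPM) spans more. Mir195a spans 1581 to 1950 CPM, and the Mir103 hairpins lie below all relatives.

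MicroRNAs known from lipid, glucose and insulin control, the field in which miR-103 and miR-107 are best known outside the brain, were also read in the cortex. Of the 10 in the list, 9 were detected, with a median of 1842 CPM, close to the mean of Mir107. Mir29a (7870 ± 2392 CPM), Mir143 (6755 ± 3330 CPM), Mir378a (4497 ± 1231 CPM), which lies in the gene of the metabolic coactivator Ppargc1b, Mir370 (3315 ± 1952 CPM) and Mir34a (1982 ± 262 CPM) led it. Mir33, in the sterol regulator gene Srebf2, was at 32.0 ± 11.6 CPM. Between the mice, Mir143 (2.00-fold) and Mir27b (2.04-fold) were called as higher in mouse 2 and Mir370 as higher in mouse 1, and the other 6 of 9 tested genes were not called, where 19.4% of all tested genes were called.

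In the list of families in paralogous host genes, 8 of 11 genes were detected and the median was 109 CPM (46.1 CPM in mouse 1 and 142 CPM in mouse 2). Mir26a-1 and Mir26a-2 were called as higher in mouse 2, at log2 ratios of 2.88 and 2.05, while Mir208a and Mir208b were called as higher in mouse 1, at −1.16 and −1.75. The Mir208 genes reached 10 CPM on average only through mouse 1. Of all tested genes 19.4% were called. The other 6 of the 10 tested genes in the list were not called, among them Mir26b (6365 ± 142 CPM), Mir128-1 and Mir204 (492 ± 4.71 CPM). In the list of multi-hairpin families, 12 of 18 genes were detected and the median was 39.9 CPM. This list was set by gene name, so a gene in it need not share an identical arm with another. Mir101b (589 CPM) and Mir92-1 (547 CPM) led it, and among its 12 tested genes 1 was called in each direction.

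Genes whose pair of values was nearest to each member were picked by the distance of log2(CPM + 1) over the 2 mice, which says little with so few samples. Mir298 (1811 and 5534 counts in mouse 1 and mouse 2, distance 0.14) and Mir27b (2115 and 4300 counts, distance 0.29) were nearest to Mir107. Mir669e (9 and 39 counts) and Mir701 (12 and 32 counts) were nearest to Mir103-2. Mir3088 had the same counts as Mir103-1, 2 and 5, and Mir6928 had 2 and 6. In the order of mean levels, Mir409 (1948 ± 336 CPM) stood just above Mir107 and Mir222 (1829 ± 1679 CPM) just below, and neither differed from it by more than the SD between the mice.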

How the data were processed

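MicroRNA-seq of the left cerebral cortex of 2 mice was used as whole-number read counts per gene, which the authors deposited as 1 table per library. The build is mm10 with GENCODE M21, per the submitters' README notes. For the aligner, counter and adapter trimming nothing is given in the sources used here. No source names the 3 count columns. From the values they were read as unstranded, sense and antisense, and sense was used. Sense counts totalled 1930234 (mouse 1) and 1863876 (mouse 2). The 4 lines that name no gene were left out of library sizes. They held 32.1% and 27.3% of all reads as unmapped, 34.6% and 37.2% at several places and 6.1% and 5.63% in no gene (mouse 1 and mouse 2).

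CPM was computed over sense totals. TMM factors and the biological coefficient of variation came from edgeR 4.0.16 with an intercept-only design, and exact binomial tests and Clopper-Pearson intervals from scipy 1.17.1. On simulated counts of the 324 tested genes, the binomial test called 99.5% of 200 genes changed 4-fold. These counts were drawn with counting error alone, so they do not show how the test behaves with spread between mice. Alternatives were DESeq2 1.42.0 size factors, total counts, the unstranded column, all mapped reads as denominator, other filters on low counts and, added after seeing the data, a GC trend. Hairpin and mature sequences are from RefSeq (GRCm38.p6) and were searched by exact match.

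The members and lists were chosen with earlier results of these data known. Named were the 3 genes, the 5 highest genes of each list, if at 100 CPM or more on average, and the 2 nearest genes of each member. Other genes (Mir142, Mir223, Mir33, Mir208a, Mir208b, Mir27b in its list, Mir15b, Mir16-2, Mir26a-2, Mir218-1 and Mir218-2, Mir195b, Mir1907 and the neighbours in rank) were named after their values were seen. P-values measure counting error, and SDs the spread between these 2 libraries, which may be partly technical.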

Additional observations from a re-analysis of the deposited data

How the results depend on the processing

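The ratios were computed again with total counts, DESeq2 size factors, the unstranded column, no filter on low counts and the GC trend removed. In each, Mir107 stayed higher in mouse 2 and called, at log2 ratios from 1.32 (GC trend removed) to 1.46 (total counts). So did Mir103-2, from 1.72 (GC trend removed) to 1.90 (total counts, exact binomial adjusted p from 0.000147 to 0.000556 over the alternatives). Mir103-2 reached 10 CPM on average only through mouse 2, so its call under that filter is not independent of it. The hairpins' GC content was 47.1% for Mir107 and 45.3% for Mir103-2, and the median of tested genes was 50.9%. With only genes at 100 CPM or more tested, 36 of 207 were called in place of 63 of 324, as fewer genes were tested. Leaving out each mouse gave 1010 to 2777 CPM for Mir107, 5.18 to 19.3 CPM for Mir103-2 and 1.04 to 2.68 CPM for Mir103-1, and 99.2% to 99.4% for the share of Mir107. With all mapped reads as the denominator the mean CPM values were 772 for Mir107, 5.00 for Mir103-2 and 0.758 for Mir103-1. In the unstranded column the median of the AGCAGC list was 199 CPM in place of 428, and that of the lipid, glucose and insulin list was 1035 CPM in place of 1842; the cause was not tested. Leaving out each mouse moved the AGCAGC median to between 305 and 393 CPM and that of families in paralogous host genes to between 46.1 (without mouse 2) and 142 CPM (without mouse 1). Mir103-1 is limited by its 2 and 5 counts. No paired analysis was possible because there is a single group.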

Other observations

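Over the 1018 microRNA genes with a mature entry in RefSeq that matched a symbol of the tables, detection differed by whether an arm is shared with another gene. Mir103-1 and Mir103-2 stood among 57 genes with 1 arm identical to that of another gene and 1 arm of their own. Of these, 34 (59.6%) were at 10 CPM or more in both mice, with a median of 24.9 CPM, so both Mir103 genes lay below the median of genes built alike. Mir107 stood among 24 genes with no shared arm but an arm 1 base away from that of another gene, of which 16 (66.7%) were detected, with a median of 431 CPM. Of 37 genes with every annotated arm shared, 5 (13.5%) were detected, and of the 900 other genes 221 (24.6%) were. These are descriptions, and no test was made.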
